A study of Mus musculus with 139 samples.

Results

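Outer hair cells (OHCs) from the base of the mouse cochlea were set against OHCs from its apex. The members were chosen by their labels alone, with no measured value, and are the 8 cells labelled as OHCs of the base and the 21 labelled as OHCs of the apex. They make up 29 of the 52 OHCs in the series, which also covers OHCs of the middle region and 87 inner hair cells (IHCs) of the same 3 regions. Both groups share the tissue and the age, cochleae of mice at postnatal days 14 to 16, and the labels used here give neither a strain, a genotype, a treatment nor an animal. The study's stated purpose was to compare what hair cells of different cochlear regions are made of and do.

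The cochlea is laid out by frequency, so that hair cells near the base answer to high-pitched sound and hair cells near the apex to low-pitched sound. OHCs amplify the sound-driven vibration of the organ of Corti by changing their length with voltage, through prestin, the protein encoded by Slc26a5 that fills their lateral wall. OHCs of the base are known to be lost before those of the apex in ageing, after noise and after ototoxic drugs.

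Because no label names an animal, the cells of each group counted together as 1 sample, and no test between base and apex could be made. The 8 basal cells held 28574809 counts, between 134269 and 8831447 per cell with a median of 2522426, and the 21 apical cells held 102704914 counts, between 472897 and 13576942 with a median of 4092895. Reads were found for 1080 to 10187 genes per basal cell and for 2013 to 14257 genes per apical cell. Levels of a group are CPM, the counts of a gene per 1000000 counts of the pool, scaled by the trimmed mean of M-values (TMM), with exact Poisson intervals at 95%. Levels of a cell are CPM of its own total, and differences are log2 of (basal CPM + 1) over (apical CPM + 1). The Poisson intervals cover counting error only. Intervals of shares of cells with a read treat the cells as independent draws, which the labels cannot show. The spread between animals is unknown. The cells are named here by their titles (B_o for the base, A_o for the apex), which end in a number of unknown meaning, and these numbers are not spread evenly over the groups: 6 basal and 9 apical cells have numbers up to 100, and 2 basal cells (B_o_103 and B_o_106) and 12 apical cells have higher ones. Cells B_o_103 and B_o_106 stood apart from the other 6, with 16.9% and 14.8% of counts from the mitochondrial genome and 26.1% and 29% from the single gene CT010467.1, so counts over all genes are also given without them. Cell B_o_103 also had the fewest counts, 134269, with reads for 1080 genes, so a lack of reads says less there than in the other cells.

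Most basal cells had few OHC markers. Of 8 OHC markers, 5 reached 10 CPM in basal cell B_o_41, 3 in cell B_o_49, 2 in cell B_o_50, 1 each in cells B_o_48, B_o_51, B_o_103 and B_o_106, and none in cell B_o_52. The apical cells had between 1 and 7 with a median of 3. Within title numbers up to 100 the gap was smaller: basal cells had 0 to 5 with a median of 1.5, and apical cells 1 to 3 with a median of 3. Of 7 genes shared by hair cells in general (Myo7a, Myo6, Pou4f3, Calb1, Tmc1, Espn and Cib2), the basal cells had 0 to 3 with a median of 1.5 and the apical cells 1 to 7 with a median of 4. Within title numbers up to 100 the basal cells had 0 to 3 with a median of 2 and the apical cells 1 to 4 with a median of 3. Markers of IHCs did not take their place: of 5 such genes none reached 10 CPM in 7 basal cells, and only Tbx2 did in cell B_o_51, against 0 to 2 per apical cell. The summed level of the 16 listed OHC marker genes was 19941, 82.2, 9746, 8213, 52.7, 14.4, 119.16 and 1356 CPM in basal cells B_o_41, B_o_48, B_o_49, B_o_50, B_o_51, B_o_52, B_o_103 and B_o_106, against 583 to 20344 CPM with a median of 12795 in apical cells. Basal cells B_o_48, B_o_51, B_o_52 and B_o_103 thus lay below every apical cell, and cell B_o_41 alone lay above the apical median. In what follows the 8 cells are called basal OHCs by their label.

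Slc26a5, at chr5:21810655-21865604 on GRCm38, had 76.9 CPM in basal cell B_o_41, 1.01, 2.03 and 0.506 CPM in cells B_o_48, B_o_49 and B_o_51 and no read in cells B_o_50, B_o_52, B_o_103 and B_o_106. In apical cells it lay between 0 and 2649 CPM with a median of 315 CPM. Every basal cell was below the apical median, though 3 of the 21 apical cells had no read either. Those 3 (A_o_11, A_o_20 and A_o_21) all have title numbers up to 100. A read was present in 4 of 8 basal cells (50%, exact Clopper-Pearson interval 15.7 to 84.3%) and in 18 of 21 apical cells (85.7%, 63.7 to 97.0%), and after thinning each cell to 582635 counts in 4 of 7 basal (57.1%) and 16 of 19 apical cells (84.2%), so the intervals of these shares overlap. The pooled level was 34.3 CPM in basal OHCs, with an interval of 31.7 to 36.9, against 697 CPM and 692 to 702 in apical OHCs, a log2 difference of -4.31, and it was -8.81 without basal cell B_o_41. Within title numbers up to 100 it was -1.98. Most apical reads there came from cell A_o_18, with 661 CPM and at most 65.2 CPM in the other apical cells. Basal cell B_o_41 thus lay above every apical cell of that set except A_o_18.

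Ocm, which encodes the OHC calcium buffer oncomodulin, was detected more widely. It stood at 9533 CPM in basal cell B_o_41, 2637 CPM in cell B_o_49 and 564 CPM in cell B_o_106, at 61.6, 14, 8.61 and 1.76 CPM in cells B_o_48, B_o_50, B_o_51 and B_o_52, and had no read in cell B_o_103. Apical cells ranged from 30.8 to 19865 CPM with a median of 4711 CPM. Only basal cell B_o_41 exceeded the apical median, and since that cell held 95% of the basal counts of Ocm, the pooled levels of 4413 CPM in basal and 5391 CPM in apical OHCs (log2 difference -0.29) became -4.25 without it and 0.05 without cell B_o_106. Ikzf2, encoding the transcription factor helios that maintains the OHC programme, behaved alike, with 1984 CPM in basal cell B_o_41, 119.16 CPM in cell B_o_103, 38.5 CPM in cell B_o_49 and at most 10.1 CPM in the other 5, against 0.237 to 7372 CPM with a median of 123 CPM in apical cells. Its pooled difference of -0.31 turned to -7.15 without cell B_o_41, which held 99.4% of the basal counts. Strip2 was close between the pools at -0.08, with 86% of its basal counts in cell B_o_50, and was -2.69 without that cell.

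Several hair cell genes shared with IHCs were lower in the base. Genes counted as measured passed a filter of a mean of 5 CPM over both pools, and of 15 such genes 1 was at least 2-fold higher and 13 at least 2-fold lower in the base, with a median of -2.50. Over all 8217 genes that passed, 26% were higher and 61.7% lower by that measure, with a median of -3.04. Within title numbers up to 100 the list had 5 higher and 5 lower, with a median of -0.04, against 31.5% higher and 21.4% lower over all genes. Myo6, an actin motor that hair cells need, had 1508 CPM in basal cell B_o_41, at most 6.87 CPM in the other 7 and no read in 4 of them, against 2.42 to 6513 CPM with a median of 2775 CPM in apical cells. All 8 basal cells were below the apical median, and the pooled difference was -2.37, or -9.61 without cell B_o_41 and -1.03 within title numbers up to 100. Pou4f3, encoding a transcription factor required for hair cell survival, had 50.6 CPM in basal cell B_o_49, 4.05 and 1.02 CPM in cells B_o_48 and B_o_41 and no read in the other 5, against 0 to 2939 CPM with a median of 89.1 CPM in apical cells. Its pooled level was 4.13 CPM in basal OHCs, with an interval of 3.29 to 5.12, against 650 CPM and 645 to 655 in apical OHCs, a difference of -6.99. Tmc1, the pore-forming subunit of the mechanotransduction channel, was at 1814 CPM in basal cell B_o_49 and at most 1.02 CPM in the other 7, against 0 to 4287 CPM with a median of 152 CPM in apical cells, and its pooled difference of -2.50 became -8.35 without cell B_o_49. The basal reads of hair cell genes therefore came from different cells for different genes: Slc26a5, Ocm, Ikzf2, Myo6 and Espn mostly from cell B_o_41, Tmc1 and Pou4f3 mostly from cell B_o_49, and Strip2 from cell B_o_50.

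**Figure D1:**
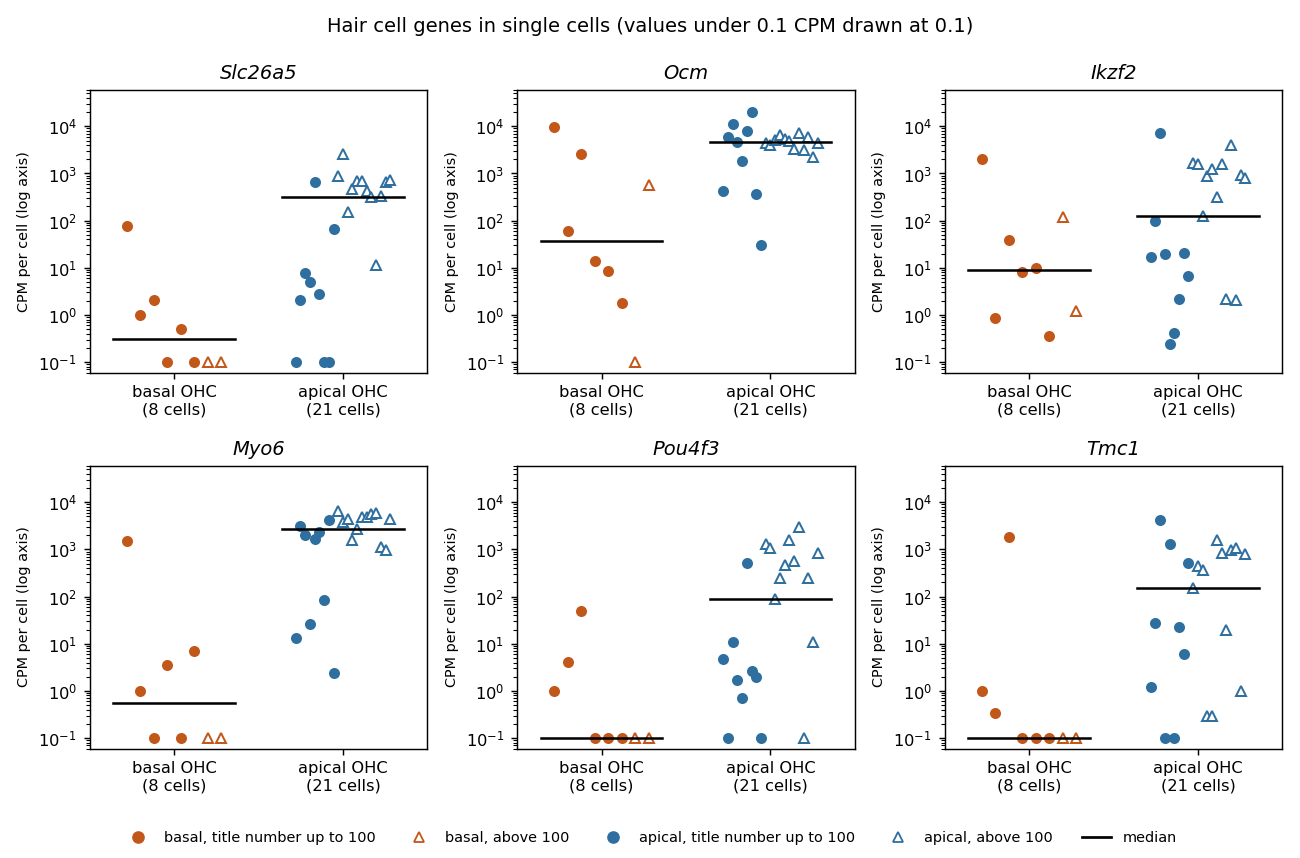
CPM per cell on a log axis for 6 hair cell genes in 8 basal OHCs (left, orange) and 21 apical OHCs (right, blue), with filled circles for title numbers up to 100, open triangles for higher ones and a black line at the median; values under 0.1 CPM are drawn at 0.1. All basal points of Slc26a5, Myo6 and Pou4f3 lie below the apical median, and 1 basal point (2 for Ocm) stands at the height of most apical points for Ocm, Ikzf2, Myo6 and Tmc1.

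Several transcripts of blood, of bone and of nerve were higher in the basal cells. The summed level of 4 haemoglobin genes was 3043 to 30269 CPM with a median of 6711 CPM in basal cells, against 89.8 to 10549 CPM with a median of 1484 CPM in apical cells, and all 8 basal cells were above the apical median. Hbb-bs, the adult beta-globin gene, had 22234 CPM in basal cell B_o_41, 408 CPM in cell B_o_106 and 2346 to 7626 CPM in the other 6, against 7.01 to 2748 CPM with a median of 167 CPM in apical cells, and 5 basal cells exceeded all apical ones. The pooled level was 13777 CPM in basal OHCs, with an interval of 13726 to 13828, against 338 CPM and 334 to 341 in apical OHCs, a difference of 5.35, which was 3.92 without cell B_o_41 and 5.50 within title numbers up to 100. Hba-a1 was higher by 2.0, or 1.22 without cell B_o_41, and Hbb-bt by 3.79, but by 0.28 without cell B_o_41, while the fourth, Hba-a2, differed by -0.13.

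Of 12 genes of mesenchyme and bone, 9 passed the filter. Where 26% of all genes were higher and 61.7% lower in the base, 6 of these 9 were at least 2-fold higher and 2 at least 2-fold lower. Their summed level was 2314 to 32156 CPM with a median of 13481 CPM in basal cells and 35.9 to 10061 CPM with a median of 1172 CPM in apical cells, and all 8 basal cells were above the apical median, 4 of them above every apical cell. Col1a1 and Col1a2 are part of this sum, with 13700 and 17807 of 32156 CPM in basal cell B_o_51 and 5956 and 5919 of 20953 CPM in cell B_o_50. Col1a1, encoding a chain of type I collagen, had 1017 to 13700 CPM with a median of 5645 CPM in basal cells, against 9.72 to 2654 CPM with a median of 189 CPM in apical cells, and 6 basal cells exceeded all apical ones. Its pooled level was 10356 CPM in basal OHCs, with an interval of 10312 to 10401, against 404 CPM and 400 to 408 in apical OHCs, a difference of 4.68 that stayed between 4.21 and 5.07 with any 1 cell left out. Col1a2 (3.58), Dcn (3.68), Sparc (3.06), Otos (3.17) and Pou3f4 (4.37), the last 2 genes of cochlear fibrocytes, were also higher, while Tbx18 (-3.88, but 0.04 without 1 apical cell) and Emilin2 (-2.88) were lower.

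Of 14 genes of neurons and glia, 13 passed the filter. Where 26% of all genes were higher and 61.7% lower in the base, 8 of these 13 were at least 2-fold higher and 3 at least 2-fold lower. Within title numbers up to 100 they were split, with 4 higher and 4 lower and a median of 0.38. Their summed level was 5288 to 23413 CPM with a median of 10210 CPM in basal cells, against 392 to 6431 CPM with a median of 2755 CPM in apical cells, so that 6 basal cells lay above every apical one. Nefm is part of this sum and not a separate result. It made up 20270 of 23413 CPM in basal cell B_o_51 and 9868 of 12340 CPM in cell B_o_52, but 1646 of 8893 CPM in cell B_o_103. Nefm, the medium neurofilament subunit, ranged from 1646 to 20270 CPM with a median of 4878 CPM in basal cells, against 0 to 3049 CPM with a median of 733 CPM in apical cells. In Nefm 7 of the 8 basal cells exceeded all 21 apical ones, and the pooled difference was 3.60. The neuronal tubulin Tubb3 (-4.24) and the synaptic protein gene Snap25 (-1.24) were lower in the base.

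The other marker lists moved less evenly, where over all genes 26% were higher and 61.7% lower in the base. Of 10 measured genes of blood and immune cells, 5 were at least 2-fold higher and 1 at least 2-fold lower in the base, and those higher were Hba-a1, Hbb-bs, Hbb-bt, Csf1r and the haem synthesis gene Alas2 (4.33, but -0.48 without cell B_o_41). The leukocyte gene Ptprc had 0.448 CPM in the basal and 2.73 CPM in the apical pool, and the macrophage gene C1qa 9.76 CPM in the basal and 5.0 CPM in the apical pool. Among 10 measured genes of supporting cells 4 were higher and 3 lower with a median of 0.21, but 3 were higher and 7 lower both within title numbers up to 100 (median -1.89) and without cells B_o_103 and B_o_106 (median -2.83). Among 5 of the stria vascularis 3 were higher and 2 lower, and of the 2 measured genes of pericytes and endothelium Rgs5 was higher (6.23) and Slco1a4 lower (-3.74, but 1.86 without 1 apical cell). Of the IHC list 3 genes passed, of which Calb2 was higher (1.04), Otof, needed for vesicle release, lower (-7.48), and Rprm differed by 0.33. Whether transcripts of other cells took part in the differences of OHC genes was not tested.

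**Figure D2:**
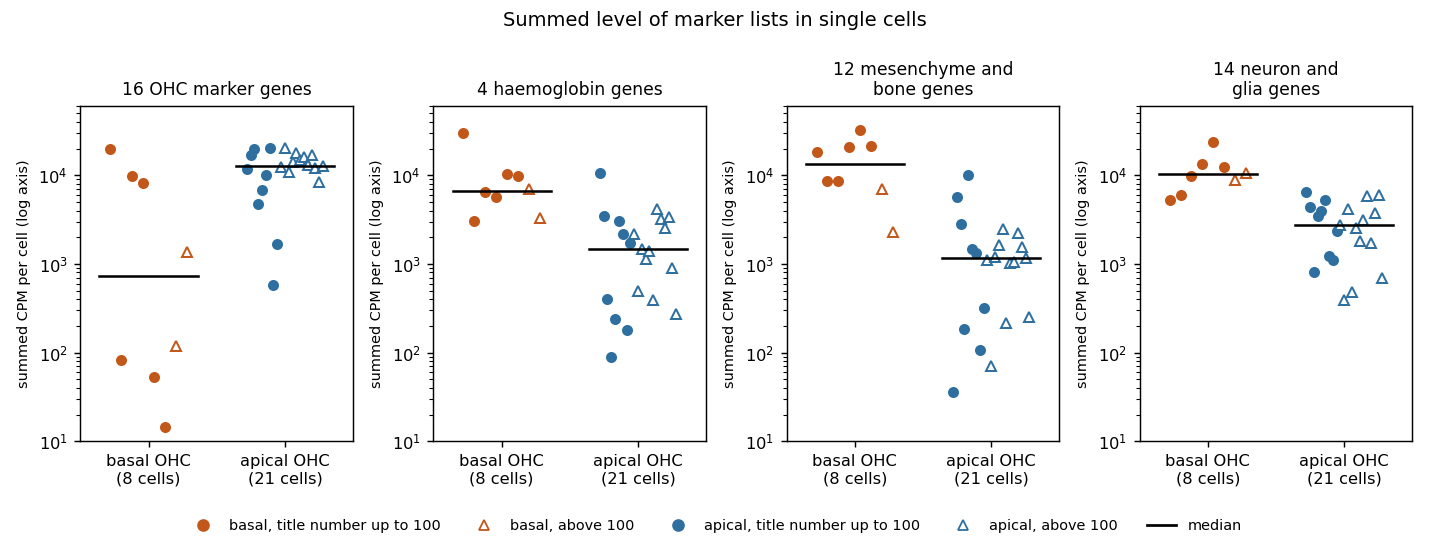
Summed CPM per cell on a log axis for 4 marker lists in 8 basal OHCs (left, orange) and 21 apical OHCs (right, blue), with circles for title numbers up to 100, triangles for higher ones and a black line at the median. OHC markers reach 14.4 CPM at the lowest in basal and 583 CPM in apical cells, while all basal cells lie above the apical median for the other 3 lists.

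A few further genes separated the cells nearly completely, and these were singled out after their values were seen. In no gene of 8211 with a symbol did all 8 basal cells exceed all 21 apical cells, in 5 did at least 7 of the 8, and Nefm and Sema3b were among them. Fth1, the heavy chain of the iron store ferritin, had 301 CPM in basal cell B_o_41 and 1221 to 14189 CPM in the other 7, against 0 to 1027 CPM with a median of 129 CPM in apical cells, and differed by 4.41 between the pools. Pomp, encoding a factor of proteasome assembly, had no read in basal cell B_o_103 and 86.2 to 1211 CPM in the other 7, against 0 to 80.6 CPM with a median of 0.734 CPM in apical cells, a pooled difference of 6.15. In the opposite direction only Tmtc4, an endoplasmic reticulum protein gene at chr14:122918971-122984035, had every basal cell below every apical cell: it had 0.340 and 0.506 CPM in basal cells B_o_41 and B_o_51 and no read in the other 6, against 0.539 to 13859 CPM with a median of 255 CPM in apical cells. The closest values, in basal cell B_o_51 and apical cell A_o_20, are a single read each. These cells held 1975017 and 1854749 counts, so the order of these 2 cells follows from depth alone. Over all genes, all 8 basal cells lay above the apical median in 32 genes (0.39%), Hbb-bs, Col1a1, Col1a2 and Fth1 among them, and below it in 224 genes (2.73%), including Myo6, Hspa2, Rimklb and Sntb1. No gene with an apical median of 0, which were 68.5%, could be counted as below. To be counted as above, a gene needed a read in every basal cell. Cell B_o_103, with 134269 counts and reads for 1080 genes, limits that count. Within title numbers up to 100 all 6 basal cells lay above the apical median in 267 genes (3.25%) and below it in 236 (2.87%).

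**Figure D3:**
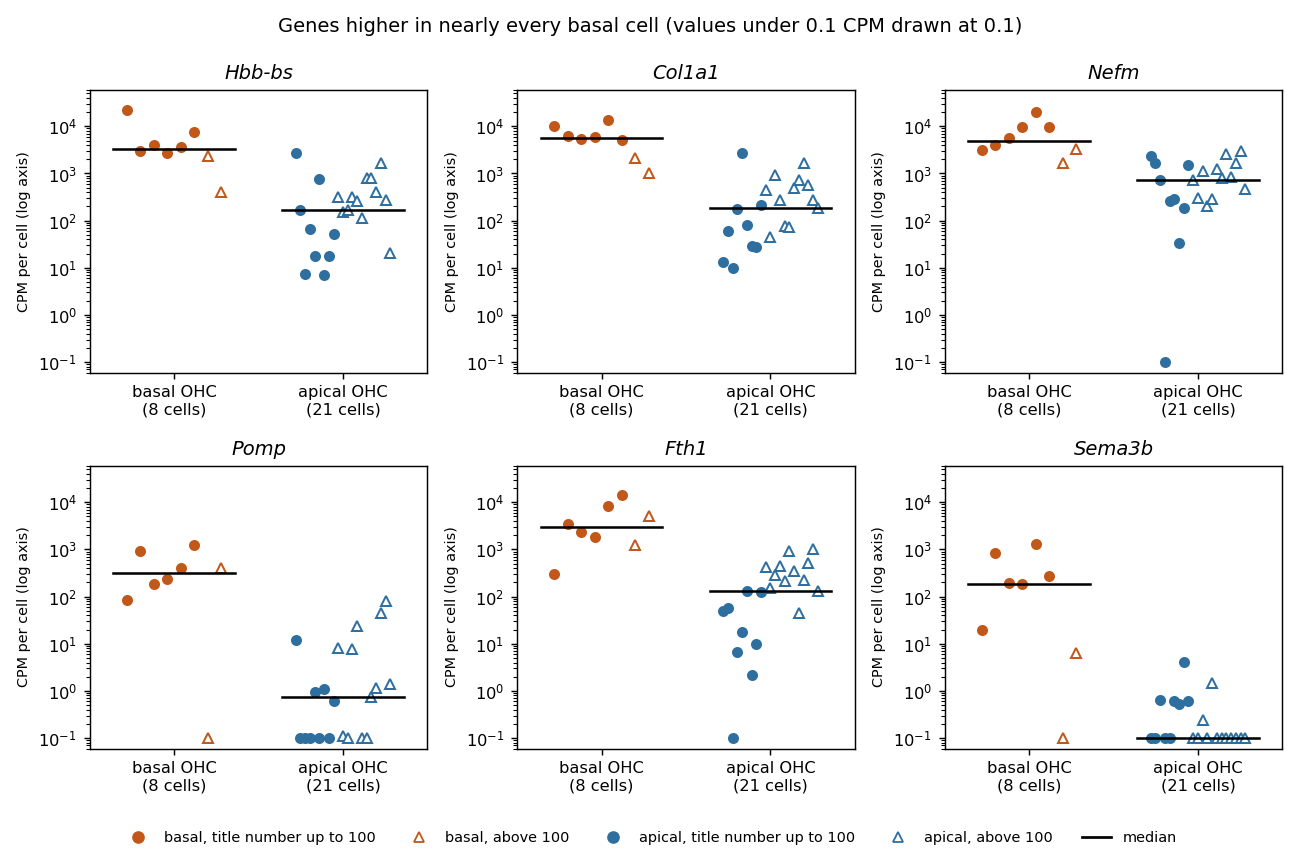
CPM per cell on a log axis for 6 genes in 8 basal OHCs (left, orange) and 21 apical OHCs (right, blue), with circles for title numbers up to 100, triangles for higher ones and a black line at the median; values under 0.1 CPM are drawn at 0.1. In Nefm, Pomp, Fth1 and Sema3b 7 basal cells lie above all apical cells, in Col1a1 6 and in Hbb-bs 5.

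Other groups of the series give these genes a scale. Pooled levels of Sema3b were 501 CPM in basal and 0.308 CPM in apical OHCs, with 24.1 CPM in OHCs of the middle, and 135 CPM in IHCs of the base against 9.12 CPM in IHCs of the apex. Hbb-bs had 620 CPM in OHCs of the middle, 2400 CPM in IHCs of the base and 97.7 CPM in IHCs of the apex, and Col1a1 had 2121 CPM in OHCs of the middle, with 918 CPM in IHCs of the base, 1511 CPM in IHCs of the middle and 159 CPM in IHCs of the apex. These differences between groups were not tested.

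Across the 8217 genes that passed the filter, 2138 (26%) were at least 2-fold higher and 5067 (61.7%) at least 2-fold lower in the base, with a median difference of -3.04. Within title numbers up to 100 the balance was another: 2587 (31.5%) were higher and 1757 (21.4%) lower in the base, with a median of 0.00. Of the genes higher in the base over all cells, 1576 (73.7%) were also higher within title numbers up to 100, but of those lower only 1535 (30.3%) were also lower, and 469 (9.26%) were higher there. Without basal cells B_o_103 and B_o_106, 1784 genes were higher and 5312 lower. Few cells carried most values: 1 basal cell held at least 90% of the basal counts in 41.5% of genes, and 1 apical cell of the apical counts in 29.9%. When the median cell stood for each group, 705 genes were higher and 822 lower in the base, and the median itself was 0 in 58.3% of genes for the basal and in 68.5% for the apical OHCs.

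By a rule of at least 2-fold in the same direction in the pool, in the mean of the cells, within title numbers up to 100 and without the deepest cell of each group, 620 genes were higher in the base, and the 12 furthest apart are named here. Sema3b, a secreted semaphorin at chr9:107597674-107609229, was the most widespread, with 19.2, 857, 192, 182, 1302 and 275 CPM in basal cells B_o_41, B_o_48, B_o_49, B_o_50, B_o_51 and B_o_52, 6.45 CPM in cell B_o_106 and no read in cell B_o_103, against 0 to 4.04 CPM in apical cells. Its pooled difference was 8.58, between 7.81 and 8.94 with any 1 cell left out. Tomm40, the channel of the mitochondrial import machinery, had reads in 4 of 8 basal cells, all 4 above every apical cell, and differed by 7.70. Mafa, a transcription factor, was at 498 and 521 CPM in basal cells B_o_51 and B_o_52 and at most 6.23 CPM in the other 6, against at most 0.673 CPM in apical cells, a difference of 7.50. Champ1, a protein of chromosome alignment, was likewise at 719 and 574 CPM in cells B_o_51 and B_o_52, a difference of 7.44, and Ppp2r5e, a regulatory subunit of protein phosphatase 2A, at 335 CPM in cell B_o_41 and 9615 CPM in cell B_o_103, a difference of 7.68.

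Of the other 7 of these genes, a single basal cell held most of the basal counts, and 3 (Galnt17, Nenf and Ubxn1) were no longer 2-fold higher without it. Cell B_o_52 held at least 90% of the basal counts of Galnt17, Nenf, Zfp688 and B4galt2, and without it the pooled differences of 8.05, 7.98, 7.62 and 7.46 were -0.09, 0.49, 2.47 and 4.43. Zfp688 had 2 counts over all apical cells. Nenf encodes a secreted neurotrophic factor, while Galnt17 and B4galt2 encode glycosyltransferases. Cell B_o_50 held 97.7% of the basal counts of the centromere protein gene Cenpb and 89.7% of those of the integrin gene Itgb4, whose differences of 7.61 and 7.21 were 2.50 and 4.14 without it. Ubxn1, encoding a ubiquitin-binding cofactor, had 33776 CPM in cell B_o_48, and its difference of 7.17 was 0.99 without that cell. B4galt2 and Cenpb overlap neighbouring coding genes in the annotation, and whether their reads were counted by strand is not given.

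**Figure D4:**
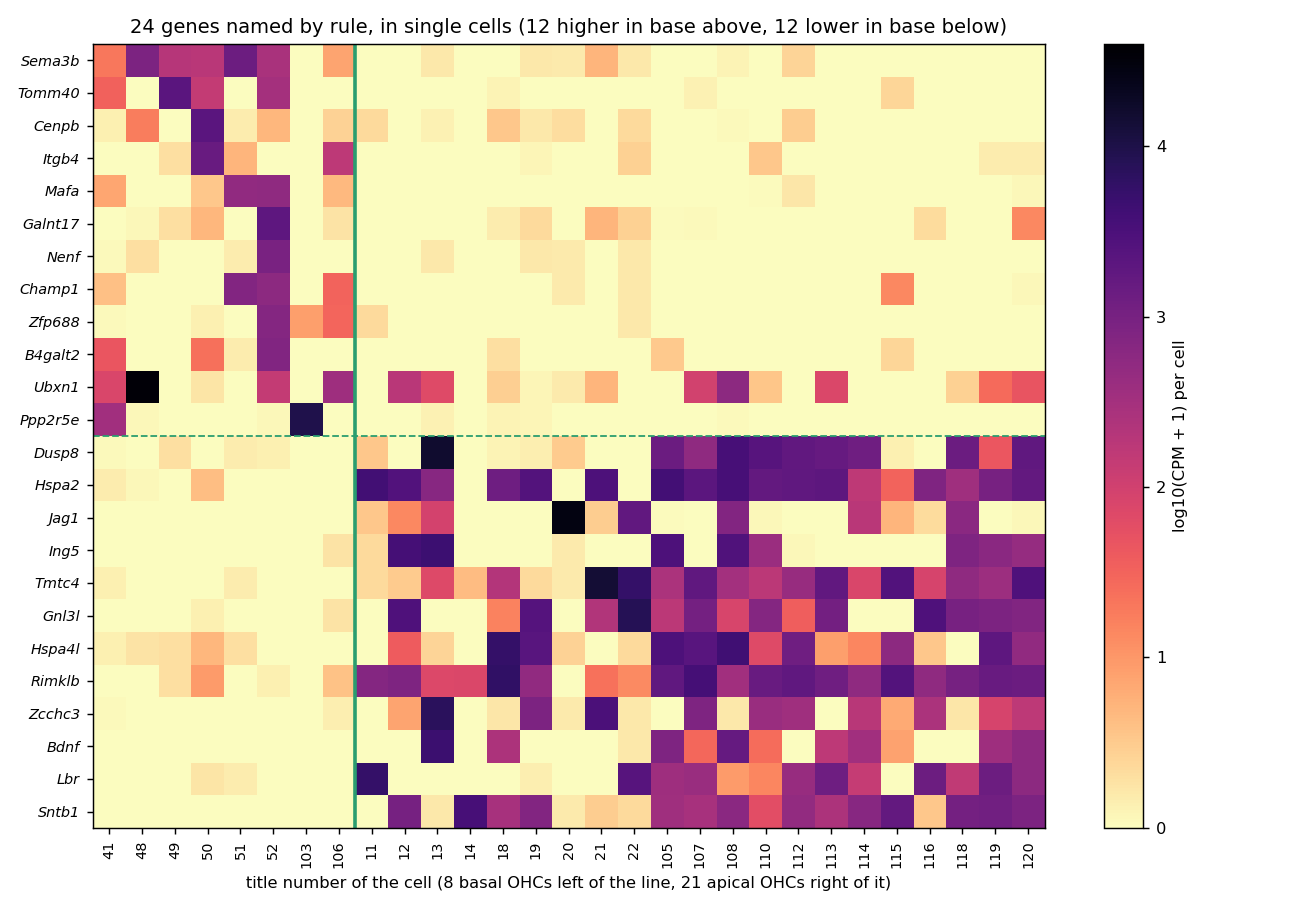
Colour map of log10(CPM + 1) per cell for the 24 named genes, with 8 basal OHCs left of the green line and 21 apical OHCs right of it, both ordered by title number, and the 12 genes higher in the base above the dashed line. Dark fields of the upper 12 genes sit mostly in 1 or 2 basal cells. Those of the lower 12 genes spread over many apical cells. All 24 genes were required to have a read in at least 50% of cells of the higher group.

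In the opposite direction 676 genes met the same rule. The 12 furthest apart were detected in 11 to 21 of the apical and in at most 5 of the basal cells. Named genes had to have a read in at least 50% of cells of the higher group and were ranked by their log2 ratios. Wide apical and sparse basal detection thus follows in part from how these genes were chosen. Sntb1, encoding a syntrophin that anchors proteins to the membrane cytoskeleton, had no read in any basal cell, against 0 to 3479.8 CPM with a median of 343 CPM in apical cells. It was detected in 0 of 8 basal cells (exact interval 0 to 36.9%) and in 20 of 21 apical cells (95.2%, 76.2 to 99.9%). After thinning it was detected in 0 of 7 basal and 17 of 19 apical cells. Because Sntb1 was picked by the values of these same cells, its shares and intervals are a description and not a test. With 3 counts over the basal pool taken as the limit, Sntb1 was at least 3276-fold lower in the basal than in the apical pool. Such a limit covers counting error in these pools only, not the spread between cells or animals. Jag1, a Notch ligand, and Bdnf, a neurotrophin, also had no basal read, against 638 and 479 CPM in the apical pool. By the same limit they were at least 4272-fold and 3208-fold lower in the basal pool. A single apical cell, A_o_20, held 81.5% of the apical counts of Jag1, and the median apical cell had 1.16 CPM. Without cell A_o_20 the log2 difference of Jag1 went from -9.32 to -6.94.

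Hspa2, a member of the 70-kDa heat shock protein family, had 13 basal and 196889 apical counts, and all 8 basal cells, at most 3.12 CPM, were below the apical median of 1663 CPM. Hspa4l, of a related chaperone family, had 1.05 CPM in the basal and 1540 CPM in the apical pool, a difference of -9.56. Rimklb, an enzyme that joins glutamate to N-acetylaspartate, was present in 20 of 21 apical cells and differed by -9.35, and Dusp8, a phosphatase of stress-activated kinases, by -10.54. Tmtc4 differed by -9.51. The remaining genes had 2 or 3 counts over all basal cells: Ing5 and Zcchc3 had 2 each, and Gnl3l and Lbr 3 each, against 414 to 872 CPM in the apical pool.

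The gene lists are described against the values over all genes. Of these 26% were higher and 61.7% lower over all cells, and 31.5% and 21.4% within title numbers up to 100. Shares near these are no more than the background. The same holds for a list's median near -3.04 over all cells, or near 0.00 within title numbers up to 100. Among 15 measured OHC marker genes 0 were higher and 10 lower in the base, with a median of -4.29, and within title numbers up to 100 3 were higher and 8 lower, with a median of -1.92. Kcnn2, the calcium-activated channel of the efferent synapse, was lower on both counts (-4.83 and -4.36), as were Aqp11 (-5.40 and -4.77) and Lbh (-4.29 and -3.91). Within title numbers up to 100, most apical reads of Kcnn2 came from cell A_o_20 (450 CPM, at most 65.6 CPM in the others). Those of Aqp11 came mostly from cell A_o_11 (6484 CPM, at most 785 CPM in the others). By the median of the cells Kcnn2 differed by -0.42. Chrna10, a subunit of the acetylcholine receptor of the efferent synapse, differed by -6.00 over all cells and by 0.27 within title numbers up to 100.

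Of 8 measured genes of mechanotransduction and the tip link, 0 were higher and 7 lower in the base, with a median of -3.82, against 2 higher and 4 lower with a median of -1.80 within title numbers up to 100. Lhfpl5, a subunit of the transduction complex, had at most 1.01 CPM in any basal cell against a median of 262 CPM in apical cells, and Tmie, another subunit, at most 0.679 CPM against a median of 41.7 CPM. Their differences were -10.03 and -8.31 over all cells and -0.78 and -2.82 within title numbers up to 100. Pcdh15, a tip link cadherin, was lower in both (-6.36 and -7.70). Its apical level within title numbers up to 100 came from cell A_o_18, with 2289 CPM and at most 1.66 CPM in the other apical cells there. Cib2, which binds the channel, had opposite signs in the 2 comparisons (-1.55 and 3.81).

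Of 28 measured stereocilia genes 2 were higher and 23 lower, with a median of -3.76, against 6 higher and 10 lower with a median of -0.19 within title numbers up to 100. The higher ones were Espn, an actin bundler (1.5, but -4.82 without cell B_o_41), and Rdx, the radixin gene (1.95, but 0.36 without cell B_o_52). Ptprq, Myo3a and Grxcr2 had no basal read and were at least 759-fold, 142-fold and 309-fold lower. Placing genes without reads at these limits changed the median of no list. Genes of the ribbon synapse and release were split, with 6 of 17 higher and 8 lower and a median of 0.14, and Cabp1, a calcium sensor, was higher by 7.64, but by 0.32 without cell B_o_52.

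Of 8 measured potassium channel genes 2 were higher and 5 lower, with medians of -3.71 over all cells and 0.24 within title numbers up to 100. These shares, 25% and 62.5%, were near the 26% and 61.7% over all genes. Of 18 calcium buffers and transporters 2 were higher and 12 lower, with medians of -2.42 and -0.54. Atp2b2, the calcium pump of the hair bundle, had 45.6 CPM in basal cell B_o_49 and at most 3.51 CPM in the other 7, against 0 to 5488 CPM with a median of 441 CPM in apical cells, and differed by -7.84 over all cells and by -7.33 within title numbers up to 100. S100a1, a calcium-binding protein, was lower in both as well (-8.21 and -8.09). Calb2, the calretinin gene, was higher by 1.04, but by 0.32 without cell B_o_52, and Pvalb differed by -0.11. Of 5 efferent synapse genes 1 was higher and 2 lower, with a median of 0.39. Of 16 genes that build the lateral wall and the cortex beneath it 5 were higher and 7 lower, with a median of 0.04, and the higher ones included the ankyrin gene Ank1 (7.09, or 4.88 without cell B_o_52).

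Most ribosomal protein genes were higher in the base in both comparisons. Of 78 measured ribosomal protein genes 51 were higher and 16 lower in the base, with a median of 2.01, and within title numbers up to 100 59 were higher and 10 lower, with a median of 3.07. Their summed level was 7649 to 78150 CPM with a median of 28579 CPM in basal cells, against 885 to 29384 CPM with a median of 7597 CPM in apical cells. All 8 basal cells lay above the apical median and 4 above every apical cell. Rps25 had 10909 CPM in the basal and 1170 CPM in the apical pool (3.22), Rpl5 1808 and 152 CPM (3.57) and Rpl8 1461 and 72.1 CPM (4.32). The direction of this list's median was the same with any 1 basal cell left out, from 1.39 to 2.25. Ribosomal protein genes have many near-identical pseudogenes, and how reads with several matches were counted is not given.

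Genes of energy metabolism depended on the cells compared. Of 13 glycolysis and lactate genes 6 were higher and 6 lower over all cells, with a median of 0.59, while within title numbers up to 100 9 were higher and 1 lower, with a median of 2.73. Pkm, encoding pyruvate kinase, was higher in both (2.66 and 4.58), as was Eno2 (3.92 and 4.89). Over all genes 26% were higher and 61.7% lower. Of 14 citric acid cycle genes 1 was higher and 10 lower (7.14% and 71.4%). Of 32 nuclear genes of complex I 7 were higher and 19 lower (21.9% and 59.4%). Of 32 nuclear genes of complexes III, IV and V 9 were higher and 16 lower (28.1% and 50%). The medians of these lists, in this order, were -3.12, -2.31 and -0.94 over all cells and 0.24, 1.09 and 0.46 within title numbers up to 100. Of 11 genes of the mitochondrial genome 4 were higher and 2 lower, with a median of 0.38, but without cells B_o_103 and B_o_106 2 were higher and 6 lower, with a median of -1.22, and within title numbers up to 100 4 were higher and 4 lower.

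Lists tied to stress and vulnerability gave no common direction. Of 16 antioxidant genes 3 were higher and 7 lower, with a median of 0.28, and Sod1, the cytosolic superoxide dismutase, was higher by 1.05 over all cells and by 0.27 within title numbers up to 100. Txn1, the thioredoxin gene, differed by 4.46, but by -4.11 without cell B_o_41. Of 16 chaperones and heat shock proteins 3 were higher and 11 lower (18.8% and 68.8%, against 26% and 61.7% over all genes). Their medians were -2.68 over all cells and 0.01 within title numbers up to 100. Hsp90ab1 was higher (2.59) and Hsp90aa1 lower (-2.56), each in the same direction within title numbers up to 100 (2.0 and -2.08). Of 11 apoptosis and p53 genes 3 were higher and 7 lower (27.3% and 63.6%, near the shares over all genes), with medians of -2.33 and 0.01. Of 7 measured immediate early genes 6 were higher and 1 lower, with a median of 2.25, which was -0.12 without basal cells B_o_103 and B_o_106 and -0.68 within title numbers up to 100. Cell B_o_106 held nearly all basal counts of Dusp1, Zfp36 and Klf6.

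Of 7 tubulin genes 3 were higher and 2 lower, with a median of 0.57, and Tuba1b was higher by 2.84. Within title numbers up to 100 5 of the 7 were higher and 1 lower, with a median of 5.15. Of 6 Id, Hes and Bhlhe regulators 2 were higher and 3 lower, with a median of -1.68, and Id4 differed by -8.18. Of 5 genes graded along the developing duct 1 was higher and 4 lower, with a median of -3.52. The higher one was Rorb, encoding an orphan nuclear receptor, with 23428 CPM in the basal and 6849 CPM in the apical pool (1.77), and the ephrin gene Efnb2 was lower (-8.21).

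**Figure D5:**
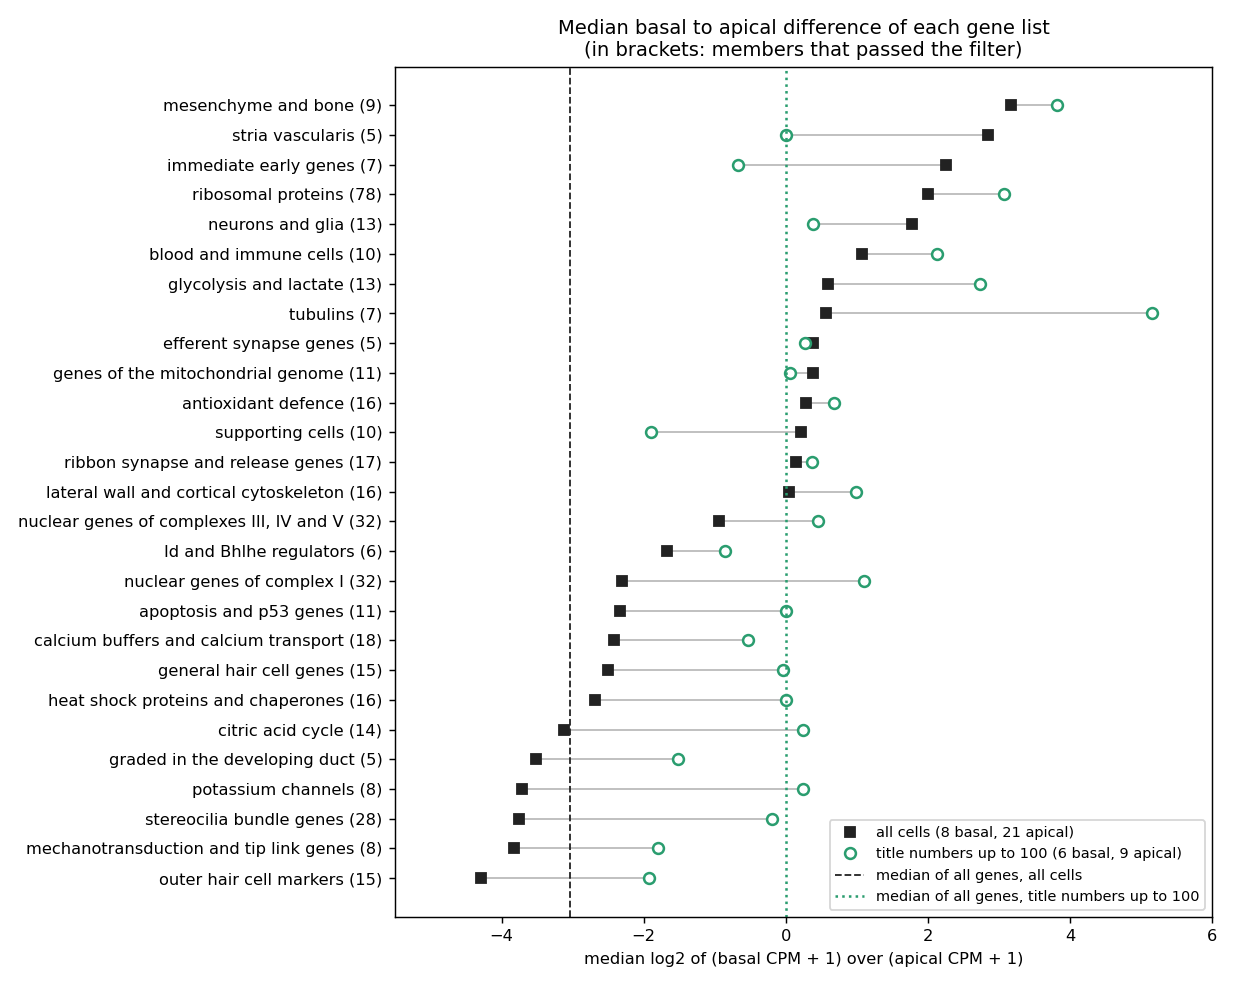
Median log2 difference of each gene list with at least 5 measured members, for all cells (black squares) and within title numbers up to 100 (open green circles), with vertical lines at the medians of all genes, -3.04 and 0.00. Mesenchyme and bone, ribosomal proteins, blood, glycolysis and tubulins are among the lists right of both lines in both comparisons. The medians of OHC markers and mechanotransduction genes each lie left of the line of their own comparison.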

How the data were processed

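Each of 29 cells is 1 RNA library read on an Illumina HiSeq 2500, per the labels' protocols. The deposited file is 1 table of counts, not normalized by the authors, with 55335 genes and 139 cells, and 0 columns of values stayed unused. The submitters' processing notes name Trimmomatic, HISAT2, featureCounts, Subread 1.4.6 and the build GRCm38 (mm10); how strand, reads with several matches and molecular identifiers were treated is not given here.

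Symbols came from the GENCODE M21 annotation for 55154 identifiers, and the other 181 held 0.00885% of the counts. Counts were summed over the cells of each of 6 groups and scaled with TMM in edgeR 4.0.16 (R 4.3.3), with factors of 0.703 for basal and 0.979 for apical OHCs. Genes with a mean of at least 5 CPM over the 2 groups were kept, and 1 CPM was added before taking log2. A difference of at least 2-fold was counted. Single-cell CPM use a cell's own total without TMM, and pooling weights cells by their depth, so that a pooled level can exceed the mean of the cells. Computations used Python 3.11.15 with numpy 2.4.6, pandas 2.3.3 and scipy 1.17.1, and were tested on simulated data.

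Named genes are protein-coding, with at least 10 CPM and a read in at least 50% of cells of the higher group, leaving out predicted, ribosomal and mitochondrial ones, and are ranked by the smallest of 4 log2 ratios. Genes outside this rule are members of the 29 lists or are said to be chosen after their values were seen, and some genes are not reported here. The members, the lists and the tests were chosen with earlier results of these data known. Of 42 genes checked, 4 overlap a coding gene on the opposite strand (B4galt2, Lbr, Chrna10 and Strc) and 2 on the same strand (Cenpb and B4galt2). Alternatives were DESeq2 1.42.0 size factors, totals, the mean and the median of the cells, other pseudocounts and filters, equal depth, title numbers up to 100 and leaving out cells.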

Additional observations from a re-analysis of the deposited data

Results flagged for a closer look

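In 8 measures, 1 basal OHC stood apart from the other 7 by more than Dixon's 95% critical value for 8 samples. That value is made for normally spread values, and single-cell CPM with many zeros are not so spread. In 41.5% of genes 1 basal cell held at least 90% of the basal counts. The gaps are therefore a description only, with no rate by chance attached. Cell B_o_41 held 5 of these, with 30269 CPM summed over 4 haemoglobin genes, 22234 CPM of Hbb-bs, 76.9 CPM of Slc26a5, 9533 CPM of Ocm and 1984 CPM of Ikzf2. Cell B_o_49 stood apart with 50.6 CPM of Pou4f3 and 1814 CPM of Tmc1, and cell B_o_50 with 2977 CPM of Strip2. The apical group has more than 10 cells and was not examined in this way.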

How the results depend on the processing

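The counts of 2138 genes higher and 5067 lower in the base stayed within 1.5 times under DESeq2 size factors, totals, the mean of the cells, both other pseudocounts, equal depth, the filter over the pool of all cells, and without the deepest cells or, added after seeing the data, without basal cells B_o_103 and B_o_106. With any 1 cell left out they ran from 1807 to 2199 and from 4830 to 5419. They moved further with the median of the cells (705 and 822), with no filter (8129 lower) and within title numbers up to 100 (1757 lower), where 59.6% of the genes counted were higher, against 29.7% over all cells. The median of all genes was -2.51 with DESeq2 size factors and -3.30 with totals, against -3.04. List medians of at least 1 in size changed sign within title numbers up to 100 for potassium channels (0.24), the citric acid cycle (0.24, and 0.12 with the median of the cells), complex I (1.09), chaperones (0.0064), apoptosis and p53 genes (0.0060), immediate early genes (-0.68) and pericytes (-0.056). Those of chaperones, of apoptosis and p53 genes and of pericytes went to near 0 rather than to the opposite direction. Stria vascularis stood near 0 with no filter (-0.012) and reversed without basal cells B_o_103 and B_o_106 (-1.57). Immediate early genes changed sign without both cells (-0.12). With any 1 cell left out, stria vascularis ran from -1.57 (without cell B_o_106) to 3.16 and immediate early genes from -0.12 to 4.30. Smaller medians also crossed 0: within title numbers up to 100 supporting cells (-1.89) and complexes III, IV and V (0.46), and without cells B_o_103 and B_o_106 supporting cells (-2.83), efferent genes (-2.66), IHC markers (-2.26), antioxidant genes (-1.67), the mitochondrial genome (-1.22) and the lateral wall (-0.68). Gene values of at least 1 in size reversed within title numbers up to 100 for Chrna10 (0.27), Calb1 (0.44) and Kcnma1 (1.95), and with 1 cell left out for Galnt17 (-0.093 without cell B_o_52, to 8.81) and Calb1 (-3.64 to 1.58, the last without apical cell A_o_107). The causes were not tested. No paired analysis was possible because the labels give no number shared between cells of the base and the apex. Depth limits what basal OHCs can show: 773 of the genes had no basal read, and 3 counts over the pool are 0.149 CPM in basal and 0.0298 CPM in apical OHCs.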
